A study of Mus musculus with 21 samples.

Results

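The 8 genes described here encode RNA-binding proteins that set how long an mRNA lasts. They are Zfp36, Zfp36l1 and Zfp36l2, the endonucleases Zc3h12a (Regnase-1) and Zc3h12d (Regnase-4), Rc3h1 (Roquin-1) and Rc3h2 (Roquin-2), and Elavl1 (HuR). They were chosen by name as well-known regulators of mRNA decay, with earlier results of these data known. All 8 were among the 47643 genes of the deposited count table, and all 8 were among the 15300 genes with at least 10 counts over the libraries.

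The study asked how the amount of antigen shapes the transcriptional response of CD4+ T cells over time. It used Tg4 Tiger Nr4a3-Tocky mice, in which the Tg4 transgene gives T cells a receptor for a peptide of myelin basic protein (MBP), Tiger is an Il10-GFP reporter, and Nr4a3-Tocky is a fluorescent Timer protein under Nr4a3 control that is blue when new and red once mature. All 7 groups carried these alleles and held 3 mice each, of an age not given in the sources used here. Mice of both sexes were used in the study, and the sex of each group is not given in the sources used here. The control group was untreated, and 6 groups received 0.8 or 80 µg of [4Y] MBP peptide under the skin of the flank, without adjuvant, 4, 12 or 24 h before the spleen was taken. Responding cells were gated by Timer colour, which was blue without red at 4 h (Blue+Red-), both colours together at 12 h (Blue+Red+) and red without blue at 24 h (Blue-Red+). Time and gate therefore cannot be told apart, and the gate of the control cells is not given in the sources used here. The immunised libraries therefore describe cells in which the Timer had been switched on, not all CD4+ T cells.

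Immune mRNAs such as those for cytokines are kept short-lived by elements in their 3′ untranslated regions (UTRs). ZFP36 proteins bind AU-rich elements and recruit the CCR4-NOT deadenylase, Regnase-1 cleaves stem-loops in translating mRNAs, and Roquin proteins bind related stem-loops and recruit deadenylation and decapping factors, whereas HuR binds AU-rich and U-rich sequence and mostly stabilises its targets. In T cells, loss of these brakes is known for excess cytokine production and autoimmunity, and MALT1 protease, activated through the T cell receptor, cleaves Regnase-1 and the Roquins.

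Several of these regulators carry in their own mRNAs the element that the ZFP36 family reads. The nonamer TTATTTATT, the core of the AU-rich element, was searched on the sense strand of the longest annotated 3′ UTR of each gene (GENCODE vM21, GRCm38). It was present in 6 of the 8 regulators, in 5 of 20 textbook target mRNAs and in 7.7% of 21037 protein-coding genes, and in 16.0% of the 6137 genes whose 3′ UTR was at least 1800 bases long. The sites below are shown because this is the kind of sequence that both the ZFP36 proteins and HuR bind, with the nonamer in capitals, 10 bases on either side, and every site read in the sense of the mRNA.
Zfp36, chr7:28376951-28376979, minus strand: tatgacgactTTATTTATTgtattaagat
Zfp36l1, chr12:80108167-80108195, minus strand: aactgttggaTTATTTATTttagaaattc
Zfp36l2, chr17:84184914-84184942, minus strand: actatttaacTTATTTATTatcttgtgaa
Rc3h1, chr1:160970043-160970071, plus strand: actttactcaTTATTTATTgagatgagga
Rc3h2, chr2:37373287-37373315, minus strand: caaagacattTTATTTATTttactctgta
Elavl1, first of 8 overlapping or neighbouring matches, chr8:4285788-4285816, minus strand: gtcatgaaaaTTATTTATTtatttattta
Il2, chr3:37120898-37120926, minus strand: ttatctgaaaTTATTTATTatattgaatt
Tnf, first of 5 matches, chr17:35199689-35199717, minus strand: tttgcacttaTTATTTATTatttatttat

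Each of the 3 ZFP36 family mRNAs held 1 nonamer, as did Rc3h1 and Rc3h2, and Elavl1 held 8 between bases 3794 and 3840 after its stop codon. The 3′ UTRs of Zfp36, Zfp36l1 and Zfp36l2 were 774, 1835 and 1822 bases long. Those of Rc3h1, Rc3h2 and Elavl1 were 7181, 5331 and 4218 bases long. The share among UTRs of at least 1800 bases is not matched to these lengths. Only 1.88% of protein-coding genes held 2 or more. The 3′ UTRs of Zc3h12a (856 bases) and Zc3h12d (2327 bases) held none, and the shorter pentamer ATTTA, which 65.2% of genes hold, occurred 3 times in Zc3h12a and 2 times in Zc3h12d. A match is a description of the sequence and no evidence of binding in these cells.

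**Figure D1:**
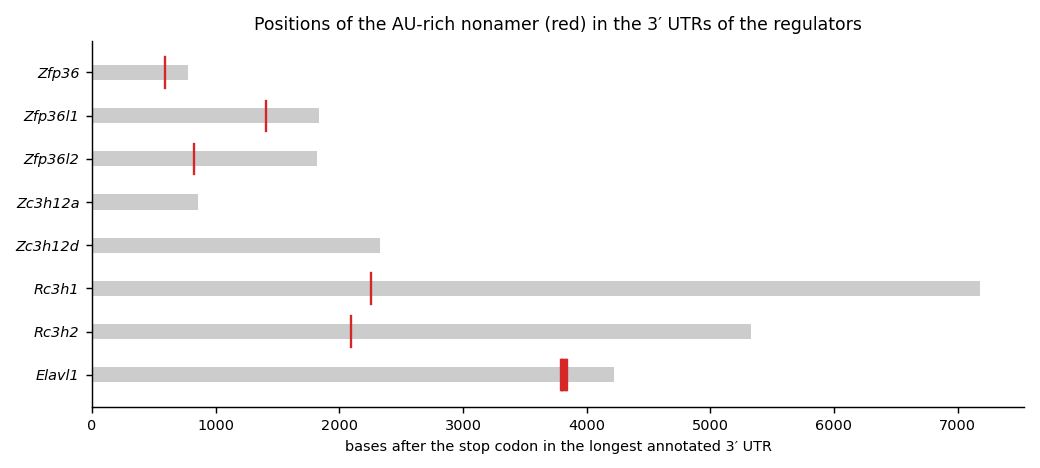
The longest annotated 3′ UTR of each regulator drawn to scale from the stop codon (x axis, bases), with each nonamer of the AU-rich element as a red mark. The nonamers of Elavl1 sit together near the end of a UTR of 4218 bases, and neither Regnase UTR holds one.

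The libraries were 3′ mRNA libraries of 2352800 to 6244279 counts, at which 3 counts correspond to 0.480 to 1.27 CPM (counts scaled by the library's total). The gene Gm42418 took 17.0% to 27.8% of the counts. All 7 CD4+ T cell markers were detected in every group, with a summed level of 3189 to 3400 CPM in control libraries, 1438 to 2003 CPM at 4 and 12 h and 2768 to 3169 CPM at 24 h. The summed level of 7 B cell markers was 410 to 473.6 CPM in controls, 38.3 to 129.8 CPM at 4 and 12 h and 295.3 to 417.5 CPM at 24 h. Most of it was Ighm, whereas the B cell marker Cd79a ranged from 0 to 3.83 CPM. In bulk RNA, fewer cells of a type and less RNA per cell cannot be told apart.

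Levels below are normalised counts (counts divided by the library's DESeq2 size factor), given as mean ± SD with n = 3 mice per group unless every mouse is listed. They compare 1 gene between groups and not 1 gene with another. A gene was called changed when the DESeq2 adjusted p over all genes was under 0.05 and the shrunken log2 fold change was above 1 in size. The 6 comparisons with control share the same 3 control mice.

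Each immunised group was first compared with control. At 4 h, 3 of the 8 were called in the 0.8 µg group, where 40.7% of all genes tested were called, and 3 of 8 in the 80 µg group, against 43.5% of all genes. At 12 h it was 5 of 8 at 0.8 µg (37.7% of all genes) and 5 of 8 at 80 µg (37.9% of all genes). The median log2 fold change of the 8 was 0.12 and 0.36 at 4 h, and -0.93 and -0.88 at 12 h, at 0.8 and 80 µg respectively, beside medians over all genes tested of -0.13, -0.15, -0.11 and -0.11. At 24 h no regulator was called by DESeq2 at either dose (17.3% and 20.2% of all genes were), although 5 of 8 had an unadjusted p under 0.05 at each dose, and edgeR called 0 as well. The shares at 4 h are near those of all genes, and nothing is read from the counts at 4 and 24 h about the 8 as a group.

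**Figure D2:**
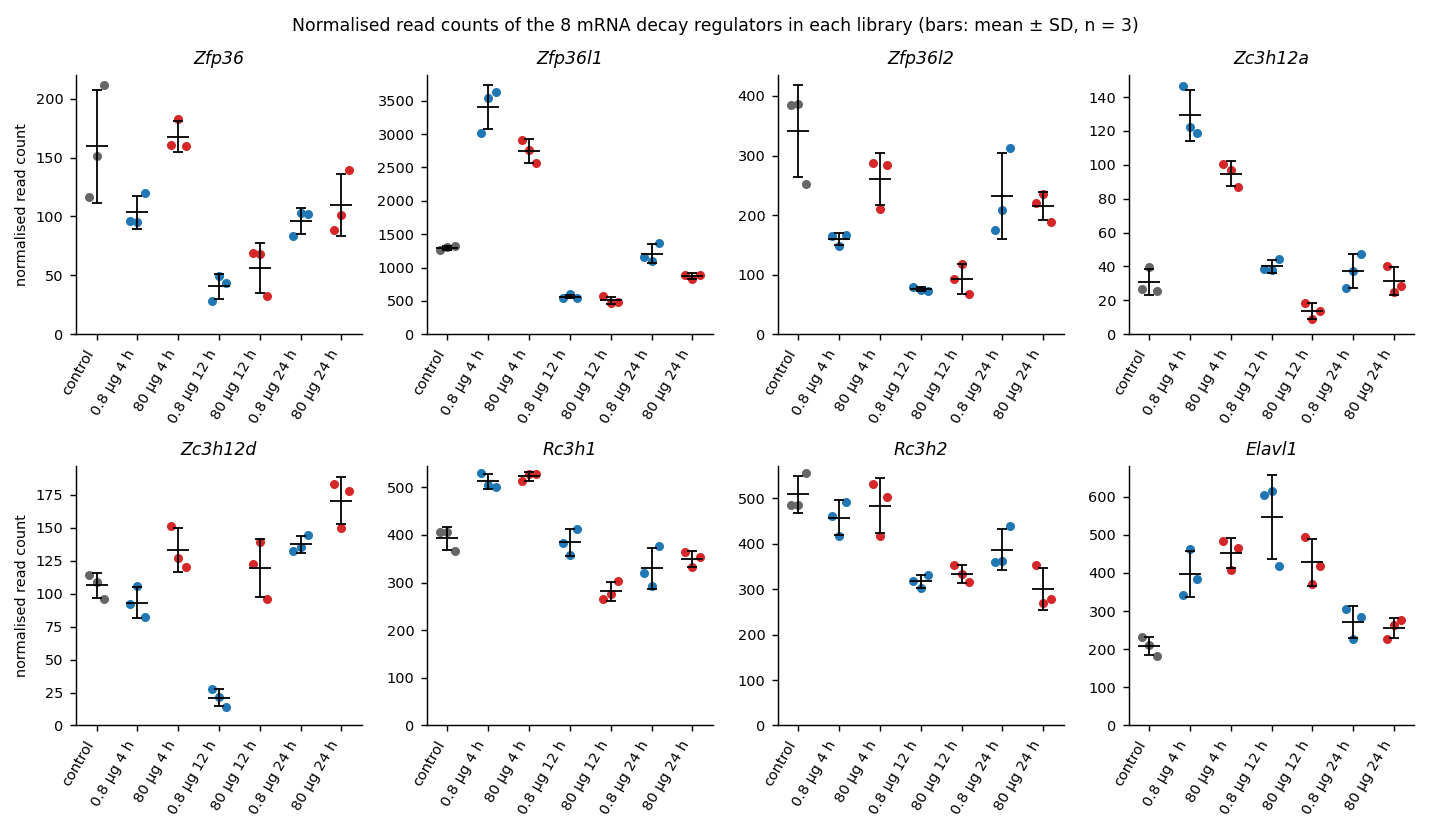
Normalised counts (y axis, 1 panel per gene, each with its own scale) in each of the 21 libraries, grouped by dose and time with the group mean ± SD. The 3 ZFP36 family genes are lowest at 12 h, Zc3h12a is highest at 4 h, Zc3h12d is low only in the 0.8 µg group at 12 h, and Elavl1 is highest at 4 and 12 h.

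Zfp36l1 (chr12:80107754-80113013, minus strand), which with Zfp36l2 restrains proliferation of developing lymphocytes, had the clearest time course of the family. It measured 1266, 1304 and 1316 normalised counts in the control mice and 3023, 3537 and 3639 at 4 h after 0.8 µg, against 2917, 2765 and 2564 at 4 h after 80 µg. At 12 h it had dropped to 549.9, 596.5 and 548.3 after 0.8 µg and to 571, 469.6 and 488 after 80 µg. All 6 libraries at 4 h lay above, and all 6 at 12 h below, the 3 control libraries. Relative to control it rose by 1.39 on the log2 scale at 4 h after 0.8 µg (SE 0.09, DESeq2 adjusted p = 2.312e-47) and by 1.08 after 80 µg (SE 0.09, DESeq2 adjusted p = 3.663e-29), then at 12 h fell by 1.19 (SE 0.10, DESeq2 adjusted p = 7.837e-32) and by 1.34 (SE 0.10, DESeq2 adjusted p = 3.481e-40).

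Between 4 and 12 h Zfp36l1 was called lower at both doses, with log2 differences of -2.58 at 0.8 µg (SE 0.10, DESeq2 adjusted p = 1.821e-150) and -2.43 at 80 µg (SE 0.10, DESeq2 adjusted p = 5.198e-133). By 24 h it had come back to 1155, 1095 and 1366 normalised counts after 0.8 µg, overlapping the control mice, and to 894.2, 822.8 and 893 after 80 µg, below all of them. The increase from 12 to 24 h was called at 0.8 µg, with a log2 difference of 1.09 (SE 0.10, DESeq2 adjusted p = 1.722e-26), which lay at 0.99 and under the fold threshold without replicate 3 of the 0.8 µg group at 24 h. In the order of its 7 group means, control and 0.8 µg at 24 h overlapped, as did both groups at 12 h, and the other neighbours were separate.

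Zfp36 (chr7:28376784-28380253, minus strand) encodes tristetraprolin, the founding member of the family and a brake on Tnf mRNA. Its control mice spread widely, at 116.5, 151.1 and 211.3 normalised counts. At 4 h it measured 95.9, 94.8 and 119.8 after 0.8 µg and 160.9, 183 and 159.5 after 80 µg, and at 12 h 28.4, 49.6 and 43.4 after 0.8 µg and 68.5, 68.2 and 32.1 after 80 µg. The 6 libraries at 12 h were the lowest of all 21. Relative to control Zfp36 at 12 h fell by 1.92 on the log2 scale after 0.8 µg (SE 0.27, DESeq2 adjusted p = 1.217e-11) and by 1.46 after 80 µg (SE 0.26, DESeq2 adjusted p = 1.364e-07). The latter was -0.94, under the fold threshold, without replicate 3 of every group.

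At 24 h Zfp36 measured 83.7, 102.6 and 102.2 normalised counts after 0.8 µg and 88.8, 101.6 and 139.3 after 80 µg, above every library at 12 h. From 12 to 24 h the rise was called at 0.8 µg, with a log2 difference of 1.21 (SE 0.28, DESeq2 adjusted p = 5.21e-05), and at 80 µg the difference was 0.95 (SE 0.26, DESeq2 adjusted p = 0.00112), under the fold threshold. That difference was 1.00 to 1.10, and called, without replicate 1 or 2 of either 80 µg group. Over all 18 alternatives it ran from 0.46 to 1.21, and it was called in 7 of them. Apart from the step down to the 12 h groups, every pair of neighbours in the order of group means overlapped.

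Zfp36l2 (chr17:84183931-84187947, minus strand) had its highest group mean in the control mice, at 385.5, 386.4 and 252.7 normalised counts, overlapping the 80 µg group at 4 h. At 4 h it measured 165.5, 148.9 and 166.2 after 0.8 µg and 288.2, 210.2 and 283.8 after 80 µg, and at 12 h 79.4, 73.7 and 72.8 after 0.8 µg and 92.3, 117.4 and 67.1 after 80 µg. The 6 libraries at 12 h were again below all others. The log2 change from control was -2.16 at 12 h after 0.8 µg (SE 0.22, DESeq2 adjusted p = 5.389e-21) and -1.86 after 80 µg (SE 0.22, DESeq2 adjusted p = 1.372e-16).

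At 4 h the decrease of Zfp36l2 from control was called after 0.8 µg, with a log2 change of -1.08 (SE 0.22, DESeq2 adjusted p = 1.809e-06). Without control replicate 1 or without control replicate 2 this value was -0.98, under the fold threshold. By 24 h Zfp36l2 was at 232 ± 71.9 normalised counts after 0.8 µg and 215 ± 23.6 after 80 µg, and the rise from 12 h was called at both doses, at 1.60 (SE 0.22, DESeq2 adjusted p = 1.125e-11) and 1.19 (SE 0.22, DESeq2 adjusted p = 2.911e-07) on the log2 scale. The value at 80 µg was 0.98, under the fold threshold, with libraries thinned to the smallest.

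In these sorted cells the low level of Zfp36 and Zfp36l2 at 12 h went with a low summed level of B cell markers, which was also low at 4 h. Of the 6 B cell markers tested against control at 12 h, 3 were called lower at the lower dose and 5 at the higher dose. At both doses 0 were called higher, and the median log2 changes were -1.24 and -1.93. The B cell gene Cd79a was at most 3.83 CPM in any library. The part of B cells in the result was not tested. Each ZFP36 family gene also shares exonic positions with 1 gene on the opposite strand, and since the strand setting of the counting is not given in the sources used here, reads of the overlapping genes cannot be told apart.

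Zc3h12a (chr4:125118423-125127840, minus strand), which encodes Regnase-1, was low before immunisation and peaked at 4 h. It measured 26.8, 39.6 and 25.7 normalised counts in the control mice, 146.4, 122.5 and 118.7 at 4 h after 0.8 µg and 100.7, 96.8 and 86.6 at 4 h after 80 µg. Every library at 4 h was above every other library of the series for this gene. The rise over control was 4.21-fold after 0.8 µg (log2 change 2.03, SE 0.28, DESeq2 adjusted p = 4.3e-12) and 3.09-fold after 80 µg (log2 change 1.58, SE 0.28, DESeq2 adjusted p = 1.034e-07).

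At 12 h, as at 4 h, the 80 µg mice were all below the 0.8 µg mice for Zc3h12a. It measured 38.2, 37.6 and 44.6 normalised counts after 0.8 µg, from 39, 50 and 38 raw counts, and 18.3, 8.8 and 13.6 after 80 µg, from 20, 12 and 14 raw counts. The 80 µg group lay below all mice of the 0.8 µg group and of the control group. From 4 to 12 h the level fell at both doses, with log2 differences of -1.67 at 0.8 µg (SE 0.27, DESeq2 adjusted p = 5.941e-09) and -2.75 at 80 µg (SE 0.31, DESeq2 adjusted p = 3.554e-17).

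Against control the 80 µg group at 12 h was called lower for Zc3h12a, with a log2 change of -1.17 (SE 0.34, DESeq2 adjusted p = 0.00130). That call did not hold without replicate 2 of the 80 µg group at 12 h (-0.90) or without control replicate 2 (-0.95), or with libraries thinned to the smallest (-0.82). Without replicate 2 of every group the change was -0.66, not called. With only the samples compared it was -1.06, also not called, and the call held in 13 of 18 alternatives. By 24 h the levels were 37.3 ± 10.1 after 0.8 µg and 31.3 ± 8.17 after 80 µg, overlapping control. The rise from 12 to 24 h at 80 µg had a log2 difference of 1.16 (SE 0.33, DESeq2 adjusted p = 0.00123), which was 0.89 without replicate 2 of the 80 µg group at 12 h and 0.97 without replicate 1 of the 80 µg group at 24 h, and 0.83 with thinned libraries.

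Zc3h12d (chr10:7832470-7870396, plus strand) encodes Regnase-4, also known as TFL, a relative of Regnase-1 that is expressed in lymphocytes. It measured 114.4, 108.5 and 95.6 normalised counts in control mice, 91.9, 105.4 and 82 at 4 h after 0.8 µg and 151.6, 126.9 and 120 at 4 h after 80 µg. At 12 h it was 27.4, 21.8 and 14.1 after 0.8 µg, from 28, 29 and 12 raw counts, and 122.4, 139.4 and 96.2 after 80 µg, from 134, 190 and 99 raw counts. The 0.8 µg group at 12 h stood below the other 18 libraries, and the 80 µg group at 12 h overlapped control.

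For Zc3h12d the low level at 12 h after 0.8 µg was a log2 change of -2.27 from control (SE 0.25, DESeq2 adjusted p = 3.747e-19), whereas after 80 µg the change was 0.17 (SE 0.19, DESeq2 adjusted p = 0.486). At 24 h it measured 132.4, 135.2 and 144.5 after 0.8 µg and 183, 150.1 and 178.1 after 80 µg, all above the control mice. The return from 12 to 24 h at 0.8 µg was 6.51-fold (log2 difference 2.63, SE 0.24, DESeq2 adjusted p = 4.885e-26).

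**Figure D3:**
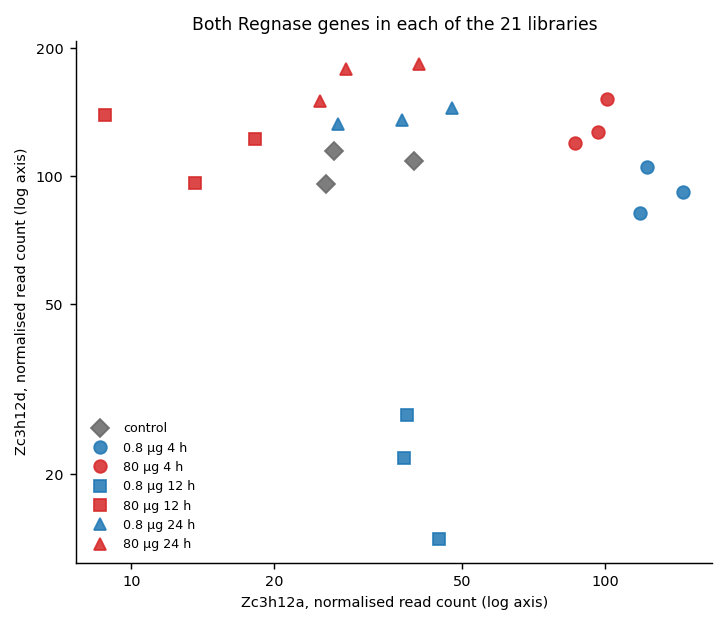
Normalised counts of Zc3h12a (x axis, log scale) against Zc3h12d (y axis, log scale), 1 point per mouse, with colour for dose and shape for time. At 12 h the 80 µg mice (red squares) lie to the left of and above the 0.8 µg mice (blue squares), and all mice at 4 h (circles) lie to the right.

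The Roquin genes moved less. Rc3h1 (chr1:160906418-160974978, plus strand) encodes Roquin-1, the protein mutated in the sanroque mouse, in which follicular helper T cells accumulate. It measured 406.1, 406.6 and 365.5 normalised counts in control mice, rose to 531, 504.5 and 501.8 at 4 h after 0.8 µg and to 512.7, 527.8 and 528.2 after 80 µg, and was 383.3, 357.3 and 413.3 at 12 h after 0.8 µg and 264.9, 276.6 and 303.3 after 80 µg. All 6 libraries at 4 h lay above the other 15, and the 80 µg group at 12 h lay below control and below the 0.8 µg group at 12 h. The changes from control at 4 h were 0.38 (SE 0.11, DESeq2 adjusted p = 0.00111) and 0.41 (SE 0.11, DESeq2 adjusted p = 0.000338) on the log2 scale, past the adjusted p but not the fold threshold. The largest move was from 4 to 12 h at 80 µg, where Rc3h1 fell by 0.89 on the log2 scale (SE 0.11, DESeq2 adjusted p = 2.022e-15).

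Rc3h2 (chr2:37370069-37422903, minus strand), which encodes the partly redundant Roquin-2, was highest in control, at 509 ± 41.4 normalised counts with a range of 484.7 to 556.7. It was 457.2 ± 38.7 and 484.4 ± 59.8 at 4 h, 317.4 ± 14.9 and 334.6 ± 19.8 at 12 h, and 387.2 ± 45.5 and 300.2 ± 45.8 at 24 h, after 0.8 and 80 µg respectively. Both groups at 4 h overlapped control, and all groups at 12 and 24 h lay below it. At 24 h after 80 µg the log2 change from control was -0.76 (SE 0.13, DESeq2 adjusted p = 2.167e-08), the largest for this gene and under the fold threshold.

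Elavl1 (chr8:4285382-4325413, minus strand), which encodes the stabilising protein HuR, was highest at 4 and 12 h. It measured 230.9, 210.9 and 182.7 normalised counts in control mice, 343.2, 463.7 and 384.2 at 4 h after 0.8 µg and 483.8, 406.8 and 465.6 at 4 h after 80 µg. At 12 h it was 604.8, 616 and 419.2 after 0.8 µg and 494.2, 372 and 418 after 80 µg, and at 24 h 305.7, 225.7 and 283.9 after 0.8 µg and 226.8, 264.2 and 277.3 after 80 µg. All 12 libraries at 4 and 12 h lay above control and above all libraries at 24 h, and the groups at 24 h overlapped control. At 12 h the log2 change from control was 1.38 after 0.8 µg (SE 0.17, DESeq2 adjusted p = 5.474e-16) and 1.03 after 80 µg (SE 0.17, DESeq2 adjusted p = 3.168e-09).

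At 4 h Elavl1 was called in the 80 µg group, at 1.11 (SE 0.17, DESeq2 adjusted p = 1.456e-10), and in the 0.8 µg group reached 0.92 (SE 0.17, DESeq2 adjusted p = 1.86e-07), just under the fold threshold. Several of its calls lay near that threshold. The 12 h value at 80 µg was 0.91 without replicate 1 of that group and 0.94 without control replicate 3, and 0.99 with thinned libraries. The drop of 1.01 on the log2 scale from 12 to 24 h at 0.8 µg (SE 0.16, DESeq2 adjusted p = 3.701e-09) was -0.93 and -0.91 without replicates 1 and 2 of the 0.8 µg group at 12 h, and -0.89 without replicate 2 of the 0.8 µg group at 24 h. Elavl1 shares exonic positions with Ccl25 on the opposite strand.

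**Figure D4:**
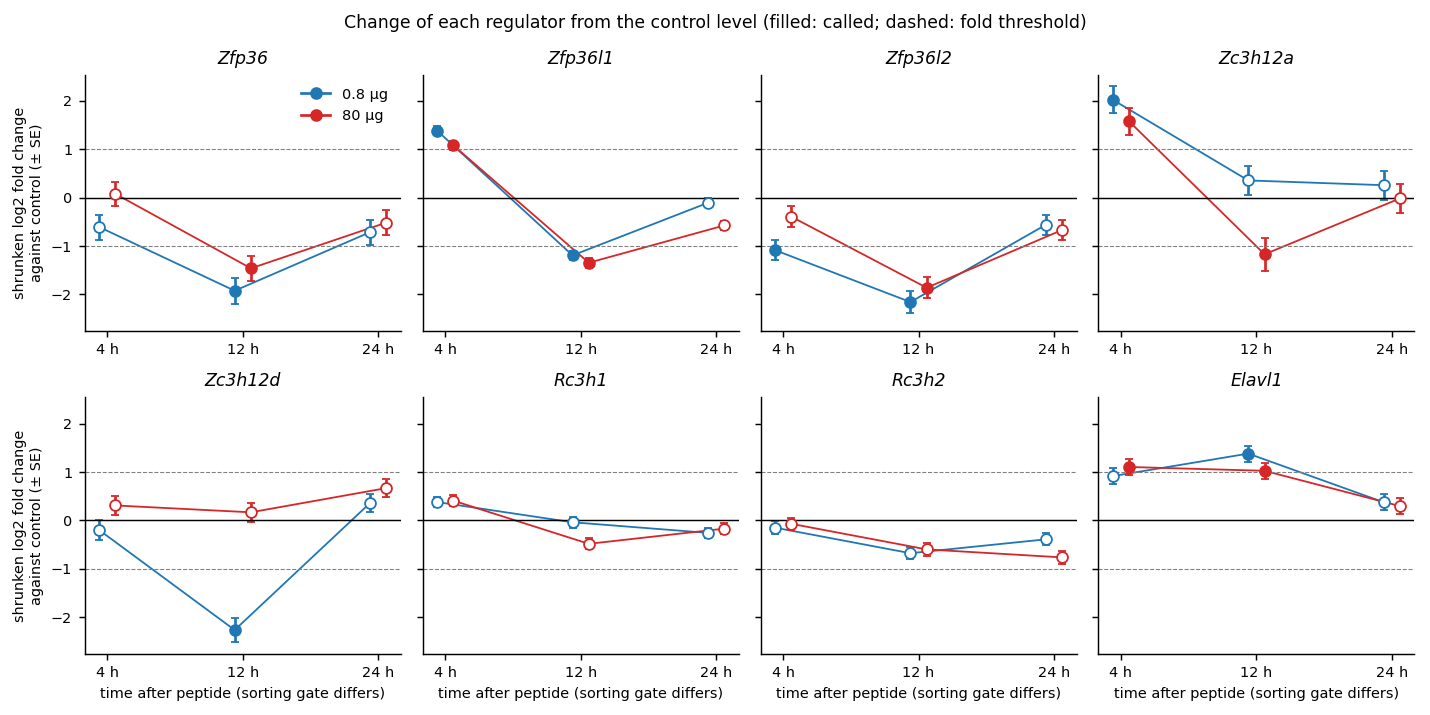
Shrunken log2 fold change from control with its SE (y axis) for each regulator at 4, 12 and 24 h (x axis) after 0.8 and 80 µg, with dashed lines at the fold threshold and filled points for called changes. At 12 h the ZFP36 family lies between -1.19 and -2.16 at both doses, and Elavl1 lies above 1.

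Consecutive times were also compared within each dose. From 4 to 12 h, 5 of the 8 regulators were called at 0.8 µg (20.5% of all genes were called) and 4 of 8 at 80 µg (24.8% of all genes). Zfp36, Zfp36l1, Zfp36l2 and Zc3h12a were called lower at both doses, and Zc3h12d at 0.8 µg. From 12 to 24 h it was 5 of 8 at 0.8 µg (26.6% of all genes) and 2 of 8 at 80 µg (27.2% of all genes). Zfp36, Zfp36l1, Zfp36l2 and Zc3h12d were called higher and Elavl1 lower at 0.8 µg, and Zfp36l2 and Zc3h12a higher at 80 µg. The median log2 difference of the 8 was -1.20 and -1.18 from 4 to 12 h and 0.69 and 0.64 from 12 to 24 h, beside medians of 0.05, 0.06, 0.12 and 0.12 over all genes tested.

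The comparison of the doses asked which regulators depended on antigen amount. At 12 h the Regnases were the regulators called, in opposite directions, and they made up 2 of the 8 where 2.79% of all genes tested were called. Zc3h12d was 5.65-fold higher after 80 µg (log2 difference 2.43, SE 0.24, DESeq2 adjusted p = 7.98e-21), and no mouse of one group reached the level of the other. Zc3h12a was 2.96-fold lower after 80 µg (log2 difference -1.53, SE 0.32, DESeq2 adjusted p = 0.000142), again without overlap. The Zc3h12a difference was -1.28 with an adjusted p of 0.107 when replicate 2 of every group was left out, and -0.95, under the fold threshold, when only these 6 libraries entered the DESeq2 fit. Rc3h1 was lower in all 80 µg mice, with a log2 difference of -0.45, past the adjusted p but not the fold threshold.

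The 12 h groups also differed in T cell markers. Cd8a measured 14.3 to 17.8 CPM after 0.8 µg and 0.807 to 1.74 CPM after 80 µg, and the sum of Cd8a and Cd8b1 was 43.6 to 51.3 and 13.1 to 22.6 CPM. The summed CD4+ T cell markers were 1438 to 1456 and 1631 to 1742 CPM. Their part in the result was not tested. The summed B cell markers overlapped, at 38.3 to 129.8 CPM after 0.8 µg and 43.9 to 105.8 CPM after 80 µg.

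At 4 h no regulator was called between doses by DESeq2 (5.85% of all genes were), with 4 of 8 at an unadjusted p under 0.05 and 0 called by edgeR. Zfp36l2 was nonetheless higher after 80 µg by 0.69 on the log2 scale (SE 0.22, DESeq2 adjusted p = 0.0149) and Zfp36l1 lower by a log2 difference of -0.31 (SE 0.09, DESeq2 adjusted p = 0.0114), both without overlap between the groups. Zfp36 (0.68, SE 0.26, DESeq2 adjusted p = 0.0603) and Zc3h12d (0.51, SE 0.20, DESeq2 adjusted p = 0.0700) also lay higher in all 80 µg mice without passing the test, and Zc3h12a (-0.45, SE 0.25, DESeq2 adjusted p = 0.299) lay lower in all of them. For Rc3h1, Rc3h2 and Elavl1 the groups overlapped, with log2 differences of 0.03, 0.08 and 0.19. The summed B cell markers were 59.7 to 98.2 CPM after 0.8 µg and 42.5 to 54.6 CPM after 80 µg at 4 h, and the summed CD4+ T cell markers 1855 to 2003 and 1642 to 1779 CPM, with 3 of the 7 called lower. Their part in these results was not tested.

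At 24 h no regulator was called between doses by DESeq2 (1.56% of all genes were), with 2 of 8 at an unadjusted p under 0.05 and 0 called by edgeR. Zfp36l1 differed most, with a log2 difference of -0.47 (SE 0.10, DESeq2 adjusted p = 0.000109) and no overlap. Rc3h2 was lower in all 80 µg mice, at -0.37 (SE 0.13, DESeq2 adjusted p = 0.0569), and Zc3h12d higher in all of them, at 0.31 (SE 0.18, DESeq2 adjusted p = 0.405). The summed CD8 markers were 34.3 to 40.9 CPM after 0.8 µg and 20.1 to 28.7 CPM after 80 µg at 24 h, and 3 natural killer cell markers summed to 3.84 to 5.01 and 0 to 1.63 CPM. The summed B cell markers, mostly Ighm, were 295.3 to 365.5 CPM after 0.8 µg and 383.6 to 417.5 CPM after 80 µg. Gene by gene the direction differed, as the 5 B cell markers tested had a median log2 difference of -0.74. Of these 4 had an unadjusted p under 0.05 and DESeq2 called 0. Their part in these results was not tested.

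**Figure D5:**
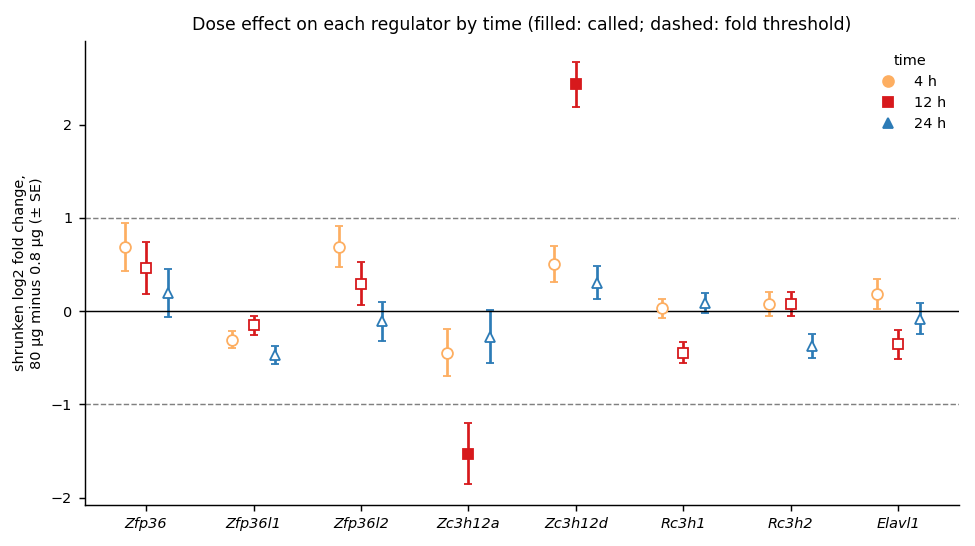
Shrunken log2 difference between 80 and 0.8 µg with its SE (y axis) for each regulator (x axis) at 4, 12 and 24 h, with filled points for called differences. Zc3h12d at 12 h (2.43) and Zc3h12a at 12 h (-1.53) are the values beyond the fold threshold.

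Whether the dose effect itself differed between times was tested with a DESeq2 likelihood ratio test over the 18 immunised libraries. It passed an adjusted p of 0.05 for 2 of the 8 regulators, where 10.4% of all genes passed. For Zc3h12d the adjusted p was 6.412e-11, with dose differences of 0.51, 2.43 and 0.31 at 4, 12 and 24 h. For Rc3h1 it was 0.0146, with dose differences of 0.03, -0.45 and 0.09, and it did not hold throughout the alternatives. It was 0.0575 without replicate 3 of the 0.8 µg group at 12 h, 0.0669 without replicate 1 of the 80 µg group at 12 h, 0.0753 with libraries thinned to the smallest, 0.0936 by edgeR, and 0.603, 0.369 and 0.101 without replicate 1, 2 or 3 of every group. For Zc3h12a the adjusted p was 0.0535.

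The regulators can also be described by how they varied together across the 21 libraries, which share 7 groups, so that the correlations reflect groups as much as mice. On the deposited log2 scale, Zc3h12a went with Rc3h1 (r = 0.91) and with Zfp36l1 (r = 0.87), and Zfp36l1 with Rc3h1 (r = 0.83). Zfp36 went with Zfp36l2 (r = 0.85). Elavl1 ran against Zfp36l2 (r = -0.66), Zfp36 (r = -0.52) and Zc3h12d (r = -0.51), but not against Zfp36l1 (r = -0.04). The Regnase genes Zc3h12a and Zc3h12d were unrelated (r = -0.06), and the Roquin genes gave r = 0.61.

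Promoters are shown for the 3 genes that were highest at 4 h together and for Zc3h12d, which was not, as 250 bases before and 50 after the start site (RefSeq, GRCm38.p6, read in the sense of the gene). Capitals mark matches to the AP-1 motif TGANTCA. RefSeq sequences matched 7 of the 8 regulators.
Zfp36l1, chr12:80112964-80113263, minus strand: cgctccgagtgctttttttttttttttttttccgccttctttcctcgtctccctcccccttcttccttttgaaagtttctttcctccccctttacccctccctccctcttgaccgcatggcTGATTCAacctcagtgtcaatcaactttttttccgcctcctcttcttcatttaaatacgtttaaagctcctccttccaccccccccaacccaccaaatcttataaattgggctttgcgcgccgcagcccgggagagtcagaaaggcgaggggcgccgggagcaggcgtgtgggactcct
Rc3h1, chr1:160906161-160906460, plus strand: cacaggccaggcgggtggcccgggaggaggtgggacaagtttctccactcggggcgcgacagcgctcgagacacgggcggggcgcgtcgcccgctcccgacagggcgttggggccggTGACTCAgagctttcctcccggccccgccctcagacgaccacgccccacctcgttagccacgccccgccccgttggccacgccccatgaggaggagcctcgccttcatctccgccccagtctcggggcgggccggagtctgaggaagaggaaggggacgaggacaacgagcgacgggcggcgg
Zc3h12a, chr4:125127832-125128131, minus strand: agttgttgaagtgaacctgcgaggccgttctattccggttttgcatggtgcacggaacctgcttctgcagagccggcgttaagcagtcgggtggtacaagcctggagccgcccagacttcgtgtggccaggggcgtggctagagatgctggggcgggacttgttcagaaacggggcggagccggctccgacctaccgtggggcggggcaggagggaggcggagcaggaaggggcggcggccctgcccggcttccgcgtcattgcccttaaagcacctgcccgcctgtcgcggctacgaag
Zc3h12d, chr10:7832220-7832519, plus strand: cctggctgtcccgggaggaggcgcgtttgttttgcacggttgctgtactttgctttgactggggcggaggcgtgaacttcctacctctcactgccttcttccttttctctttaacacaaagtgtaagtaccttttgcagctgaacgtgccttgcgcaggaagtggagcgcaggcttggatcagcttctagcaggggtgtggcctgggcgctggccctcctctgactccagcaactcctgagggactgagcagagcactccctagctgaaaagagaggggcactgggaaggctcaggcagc

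Both strands of these windows were searched for motifs of factors activated by T cell receptor signalling. The AP-1 motif, which 7.8% of 32851 promoter windows hold, was found in Zfp36l1 at position -129 and in Rc3h1 at position -133 from the start site. The NFAT core GGAAA, held by 61.3% of windows, was found 4 times in Zfp36l1, and once each in Rc3h1 and Rc3h2. The EGR motif GCGNGGGCG (5.6% of windows) and the CArG box bound by SRF (1.6%) were found in Zfp36, at -105 and -58. The CRE TGACGTCA (1.8%) and the NF-kB motif (8.5%) were in none of the 7 windows, and the windows of Zc3h12a, Zc3h12d and Elavl1 held none of the motifs searched. This says only that these letters are not in these windows.

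By likeness of pattern over the 21 libraries, among the 8752 genes averaging 20 or more normalised counts, the closest genes were Erbin (r = 0.98), Mbp (r = 0.96) and Ptprc (r = 0.95) to Zfp36l1. For Zc3h12a they were Ptprc, Mbp and Tnfaip3 (r = 0.93 each), and for Zc3h12d they were Cd5 (r = 0.90), H2-T23 and Rab27a (r = 0.86 each). Ptprc encodes the phosphatase CD45, Tnfaip3 the NF-kB inhibitor A20, and Cd5 a surface receptor that dampens T cell receptor signals. For Zfp36 the closest were Tapt1 and Zswim8 (r = 0.92 each) and Rapgef6 (r = 0.91), and for Zfp36l2 Kif21b (r = 0.96), Gimap6 (r = 0.95) and Ly75 (r = 0.94). For Rc3h1 they were Tagap (r = 0.92), Tef and Zc3h12a (r = 0.91 each), for Rc3h2 Kdm4b, Apc and Rps28 (r = 0.89 each), and for Elavl1 Ube2j2 (r = 0.96), Api5 (r = 0.95) and Gar1 (r = 0.94).

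Around the 8 regulators, the general decay machinery that they recruit held no gene called between doses. Of 20 deadenylation genes (CCR4-NOT, PAN2-PAN3, TOB and BTG proteins and poly(A)-binding proteins), 17 decapping genes, 14 exosome and Ski genes, 10 genes of nonsense-mediated decay and 5 tested relatives of the regulators, DESeq2 called 0 at 4, 12 and 24 h, and edgeR called 0 as well. Of all genes 5.85%, 2.79% and 1.56% were called at these times, and nothing particular to these lists is read from the counts of 0. At an unadjusted p under 0.05 the deadenylation list held 5, 4 and 2 genes at these times, the decapping list 4, 5 and 1, the exosome list 1, 1 and 3, the nonsense-mediated decay list 3, 2 and 0, and the relatives 0, 3 and 1. A call needs a log2 difference above 1, so smaller differences are not covered by these counts. The relatives tested were N4bp1 and the MEX3 genes Mex3a, Mex3b, Mex3c and Mex3d. The MEX3 genes belong to none of the ZFP36, Regnase and Roquin families. Zc3h12b and Zc3h12c, of the Regnase family, had no adjusted p between doses.

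Against control, genes of the exosome, which degrades RNA from the 3′ end, and of the Ski complex, which feeds cytoplasmic RNA to it, were called higher at both doses. Of the 14 genes tested of both complexes together, 10 were higher and 0 lower at 4 h after 0.8 µg (40.7% of all genes were called either way) and 11 and 0 after 80 µg (43.5% of all genes), with medians of 1.32 and 1.34 on the log2 scale, and at 12 h 10 and 11 were higher (37.7% and 37.9% of all genes were called) with medians of 1.40 and 1.32. Dis3, the catalytic ribonuclease of the exosome, chosen after its values were seen, measured 737.8 ± 27.1 normalised counts at 4 h after 0.8 µg and 74.6 ± 15.7 in control. At 24 h 4 and 5 of the 14 were called higher, namely Dis3, Exosc2, Exosc3 and Exosc8 at both doses and Exosc9 after 80 µg, where 17.3% and 20.2% of all genes were called, with medians of 0.46 and 0.17.

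Of the 20 deadenylation genes, 1 was higher and 5 lower at 4 h after 0.8 µg and 4 and 6 after 80 µg, and 2 and 5, then 2 and 6, at 12 h, where 40.7%, 43.5%, 37.7% and 37.9% of all genes were called, so nothing is read from these counts about the list. The counts of the following lists at 4 h stand beside the same shares of all genes. Of the 17 decapping genes 4 were higher at 4 h after 0.8 µg, namely Lsm2, Lsm3, Lsm6 and Lsm7 of the LSM ring that binds deadenylated mRNA ends, and 1 was lower, the 5′ exonuclease Xrn1. After 80 µg Lsm1, Lsm2, Lsm3, Lsm6 and Lsm7 were higher and Xrn1 lower. The nonsense-mediated decay list of 10 had 2 genes higher at 4 h after 80 µg, Upf1 and Smg5. In the list of relatives, which also holds the MEX3 genes for KH-domain RNA-binding proteins, Mex3a was higher and Mex3b lower at 4 h at both doses. Mex3d was called higher after 80 µg (log2 change 1.17, against 0.82 after 0.8 µg, not called).

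Among factors that act on the regulators or against them, Malt1 and Arid5a differed with dose, and both were called lower than control at 4 and 12 h after 0.8 µg. Malt1, whose protease product cleaves Regnase-1 and the Roquins, measured 94.9 ± 21.4 and 1216 ± 218 normalised counts at 4 h, 83.4 ± 7.25 and 558.3 ± 110.9 at 12 h and 106.2 ± 28.2 and 243.5 ± 14.5 at 24 h after 0.8 and 80 µg, and 241.8 ± 32.5 in control. Against control it was higher at 4 and 12 h after 80 µg, with log2 changes of 2.31 and 1.20, lower after 0.8 µg, at -1.35, -1.52 and -1.18 at 4, 12 and 24 h, and at 0.01 at 24 h after 80 µg. Between doses it was the one gene of the 10 kinases, proteases and adaptors upstream of the regulators called at each time, with log2 differences of 3.66 (SE 0.19, DESeq2 adjusted p = 6.215e-77), 2.71 (SE 0.19, DESeq2 adjusted p = 4.02e-41) and 1.19 (SE 0.19, DESeq2 adjusted p = 1.356e-07). Arid5a, which protects stem-loop mRNAs from Regnase-1, was the one gene of 12 other AU-rich and stem-loop binders called at 4 and 12 h. It measured 28.0 ± 1.18 and 104.6 ± 17.9 normalised counts at 4 h (log2 difference 1.87, SE 0.27, DESeq2 adjusted p = 1.557e-10) and 27.4 ± 10.2 and 93.4 ± 16.6 at 12 h (log2 difference 1.74, SE 0.26, DESeq2 adjusted p = 3.944e-09). Its control level was higher than all of these means, at 139.4 ± 4.15, with log2 changes from control of -2.27 and -2.30 at 4 and 12 h after 0.8 µg, both called, and -0.40 and -0.56 after 80 µg, not called.

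Of the textbook target mRNAs of these regulators, 17 could be tested between doses at 4 h. After 80 µg 9 were higher and 1 lower at 4 h (5.85% of all genes were called), 7 higher and 1 lower at 12 h (2.79%), and DESeq2 called none of 15 tested at 24 h (1.56%), where 6 had an unadjusted p under 0.05 and edgeR called 0. Their log2 differences had medians of 1.65, 0.86 and -0.17, beside -0.02, 0.01 and 0.02 over all genes tested. The largest difference at 4 h was that of Ctla4, an inhibitory receptor gene, at 343.6 ± 85.3 normalised counts after 80 µg and 3.46 ± 2.15 after 0.8 µg (log2 difference 5.93, SE 0.55, DESeq2 adjusted p = 4.691e-21). The gene called lower was Rel, which encodes c-Rel. It measured 1510 ± 130.3 and 3126 ± 268.7 at 4 h (log2 difference -1.05, SE 0.13, DESeq2 adjusted p = 1.354e-14), and 182.1 ± 28.8 and 481.6 ± 108.6 at 12 h (log2 difference -1.39, SE 0.14, DESeq2 adjusted p = 8.28e-20), after 80 and 0.8 µg respectively.

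The genes whose AU-rich sites are printed above, Il2 and Tnf, were followed for these sites. Il2 at 4 h was at 1514 ± 439.2 normalised counts after 80 µg and 155.1 ± 44.2 after 0.8 µg (log2 difference 3.21, SE 0.33, DESeq2 adjusted p = 1.073e-19), and Tnf was at 875.9 ± 199.6 and 1081 ± 198.8 (log2 difference -0.30, SE 0.22, DESeq2 adjusted p = 0.473). In the same libraries the Zfp36l1 level was 2748 ± 177.1 after 80 µg and 3400 ± 329.9 after 0.8 µg. The other ZFP36 family genes went the other way. Zfp36 was at 167.8 ± 13.2 and 103.5 ± 14.1, and Zfp36l2 at 260.7 ± 43.8 and 160.2 ± 9.82, after 80 and 0.8 µg respectively. These are steady-state levels of mRNA, and neither the rate of transcription nor mRNA half-life was measured.

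A list of 14 immediate early and stress genes was followed as a sign of handling and of recent signalling. Its summed level was 573.6 to 617.7 CPM in control, and after 0.8 and 80 µg 1382 to 1824 and 1712 to 1803 CPM at 4 h, 593 to 604.6 and 403.9 to 575 CPM at 12 h, and 441.8 to 591.8 and 357 to 397.4 CPM at 24 h. The doses overlapped at 4 h, and the 80 µg group was lower at 12 and 24 h. Its time course shared the peak at 4 h with Zfp36l1, Zc3h12a and Rc3h1, and its part in those results and in the dose differences was not tested. Between doses at 4 h, Junb and Egr2 were called higher and Egr1 lower after 80 µg. At 12 h Egr2 was called higher (log2 difference 1.63) and Egr1 (-1.51) and Nr4a1 (-2.19) lower, and at 24 h Egr1 (-1.22) and Egr2 (-2.03) lower. The heat shock gene Hspa1b measured 84.9 ± 138 and 72.1 ± 121.1 normalised counts at 12 h after 0.8 and 80 µg. Its SD was well above its mean in both groups, so most of each mean came from the highest mouse of the group. The means were 0 and 3.42 at 4 h, 1.59 and 8.38 at 24 h, and 0 in control. The part of this spread in the 12 h results was not tested.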

How the data were processed

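RNA of splenic CD4+ T cells, sorted from 21 mice, was made into QuantSeq 3′ mRNA forward libraries. The authors merged lanes, trimmed reads, aligned them to GRCm38 (mm10) with STAR 2.5.2a and counted reads per gene with HTSeq. The deposited table holds raw counts, and a second deposited table holds log2 values, which the authors obtained with the rlog transform of DESeq2 after removing genes with fewer than 10 reads. Not given in the sources used here are the annotation release, the strand setting and whether molecular identifiers were used.

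Tests on the counts used DESeq2 1.42.0 (R 4.3.3), with 1 coefficient per group over all 21 libraries, a filter of at least 10 counts in total, the Wald test, Benjamini-Hochberg adjustment over all genes and log2 fold changes shrunk with the normal prior, as in the study. Alternatives included edgeR 4.0.16 and leaving out libraries. The log2 values were used for correlations. The p-values measure the spread between mice. Counting intervals are not given, since PCR duplicates cannot be recognised.

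The members and the gene lists were chosen with earlier results of these data known. All 8 are named with their values, and for each the 3 genes of closest pattern. Of each list, the gene with the largest called change each way between doses at 4 h was named, and all genes where 5 or fewer were called, here applied between doses and against control at 4 h but not to every list in the other comparisons; those of the nonsense-mediated decay list called at 4 h after 0.8 µg are not reported here; other names were chosen after their values were seen or for their sequence. Scripts were tested on simulated data.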

Additional observations from a re-analysis of the deposited data

Results flagged for a closer look

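The effect of dose on Zc3h12d differed between times by the likelihood ratio test (DESeq2 adjusted p = 6.412e-11), with log2 differences between 80 and 0.8 µg of 0.51, 2.43 and 0.31 at 4, 12 and 24 h. The same test passed for Rc3h1 (DESeq2 adjusted p = 0.0146), with log2 differences of 0.03, -0.45 and 0.09. No group of 4 or more samples was available in which to look for single outlying mice.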

How the results depend on the processing

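Of 112 comparisons of a regulator, 36 were called, and all 36 were still called with TMM size factors, with no filter or a stricter filter on low counts, and with the replicate number as a block. Same-numbered samples deviated together no more than others (median r = -0.01 over 63 pairs). This gave no sign that the numbers pair the samples, but it cannot exclude a shared sort or batch. The replicate block left the counts of calls as they were, with Zc3h12a at -1.53 and Zc3h12d at 2.44 at 12 h between doses. edgeR kept 35 of 36, thinning to the smallest library 31, and without replicate 1, 2 or 3 in every group 33, 30 and 32 were kept. Zc3h12d at 12 h between doses was called in 18 of 18 alternatives (1.83 to 2.61) and Zc3h12a in 16 of 18 (-1.77 to -0.95). The number of regulators called with a dose by time interaction, 2 as reported, was 1 with thinning, 1 with edgeR, 3 with the stricter filter (Zc3h12a added, adjusted p = 0.0470) and 1 to 3 without a replicate. Zc3h12a passed in 4 of 27 alternatives, and Rc3h2 and Elavl1 in 1 each.

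With the adjusted p alone and no fold threshold, the counts became 2 (from 0) between doses at 4 h, where 12.0% of all genes passed, and 1 (from 0) at 24 h (5.93%). Against control they became 6 (from 3) at 4 h (54.6%) and 3 (from 0) at 24 h (36.0%) after 0.8 µg, and 4 (from 0) at 24 h after 80 µg (39.1%). Between times they became 8 (from 5) from 4 to 12 h at 0.8 µg (39.1%) and 7 (from 2) from 12 to 24 h at 80 µg (44.7%). Thinning gave 3 (from 5) at 12 h after 80 µg against control and 0 (from 2) from 12 to 24 h at 80 µg. Between doses at 12 h the count was 1 (from 2) when only the samples compared were fitted and 1 to 2 without a replicate. At 12 h after 80 µg against control it was 3 to 5 without a replicate.

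Signs changed in these alternatives only among values not called. For Zc3h12a at 24 h after 80 µg against control (-0.01 as reported) the values were 0.0013 with TMM, 0.0117 thinned, 0.0032 with only the samples compared, 0.0062 with edgeR and -0.2914 to 0.3510 without a replicate. Rc3h1 at 12 h after 0.8 µg against control was 0.0404 with only the samples compared and -0.1236 to 0.0540 without a replicate, and Rc3h2 between doses at 12 h was -0.0038 thinned. Without a replicate, the ranges against control were -0.0967 to 0.3677 for Zfp36 and -0.1539 to 0.0364 for Rc3h2 at 4 h after 80 µg, and -0.0386 to 0.4803 for Zc3h12a at 24 h after 0.8 µg. Between doses at 24 h they were -0.0111 to 0.3194 for Zfp36, -0.2847 to 0.2501 for Zfp36l2, -0.6334 to 0.0013 for Zc3h12a and -0.2166 to 0.0907 for Elavl1. Between times they were -0.2911 to 0.0820 for Zc3h12a from 12 to 24 h at 0.8 µg and -0.1946 to 0.0120 for Elavl1 from 4 to 12 h at 80 µg. The cause of these changes was not tested. Depth limits the Regnase genes at 12 h, at 12 to 20 raw counts for Zc3h12a after 80 µg and 12 to 29 for Zc3h12d after 0.8 µg.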
